A study of Homo sapiens with 12 samples.

Results

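The INK4 and KIP cyclin kinase inhibitors were followed as 7 genes in 12 RNA sequencing libraries of diffuse large B-cell lymphoma lines grown with or without selinexor, an inhibitor of the nuclear export receptor XPO1. They were the rows of the deposited table of 58302 genes named CDKN2A, CDKN2B, CDKN2C and CDKN2D (the 4 INK4 genes), CDKN1B and CDKN1C (2 KIP genes) and CDKN3. The libraries fall into 4 groups of 3, untreated OCI-LY3, selinexor-treated OCI-LY3, untreated SU-DHL6 and selinexor-treated SU-DHL6, and the replicates are biological triplicates per the design text, with the setup of the cultures not described. The labels give OCI-LY3 as an activated B-cell type line, SU-DHL6 as a germinal centre B-cell type line and the genotype of both as WT. The protocol names 300 and 100 nM selinexor and 24 and 48 h, but the labels do not say which library had which, so the 2 lines may not have had the same treatment. Each lymphoma type is represented by 1 established line, so line and type cannot be told apart.

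INK4 proteins bind the kinases CDK4 and CDK6 and keep them from pairing with D-type cyclins, which holds the retinoblastoma protein in its active, growth-restraining form. The KIP proteins p27 (CDKN1B) and p57 (CDKN1C) bind whole cyclin-kinase complexes, above all those of CDK2 with cyclins E and A, and p27 is controlled to a large extent by degradation and by its place in the cell, which mRNA does not show. CDKN2A gives rise to a pair of unrelated proteins, p16 and ARF, from separate first exons, and its row in the table sums both. CDKN3 shares only the family name: it encodes a phosphatase that removes the activating phosphate from CDK2 and is made mainly in dividing cells. In B cells p18 (CDKN2C) is known for its part in the cell cycle exit of plasma cell differentiation, and loss or silencing of CDKN2A is a frequent event in aggressive B-cell lymphoma.

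Library totals ranged from 14210200 to 16405842 counts, and Pearson's r between replicates was 0.981 to 0.986 over log2 CPM (CPM is a gene's count relative to its library total, after scaling of the totals by edgeR's TMM factors). The B cell markers MS4A1 and CD79A were at 261 to 659 CPM and 507 to 586 CPM in OCI-LY3 and at 321 to 546 CPM and 1049 to 1646 CPM in SU-DHL6. The summed level of 6 germinal centre markers was 151 to 156 CPM in untreated OCI-LY3 and 701 to 726 CPM in untreated SU-DHL6. That of 6 activated-type markers was 3625 to 3696 CPM in untreated OCI-LY3 and 768 to 863 CPM in untreated SU-DHL6. The T cell list of 5 markers summed to at most 0.627 CPM in untreated OCI-LY3 and 3.16 to 4.89 CPM in treated OCI-LY3, 4 myeloid markers to at most 1.18 and 3.96 to 4.61 CPM, and the fibroblast and epithelial list to 22.1 to 23.3 and 28.0 to 38.1 CPM. In OCI-LY3 the T cell sum came from CD3E and CD8A, the myeloid sum from CSF1R, and the last sum almost wholly from COL1A1. The other T cell and myeloid markers, EPCAM and KRT19 were at 0 counts there. The part of these transcripts in the results below was not tested. In such bulk libraries, fewer cells with a transcript and less of it per cell cannot be told apart.

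Of the 7 genes, 6 passed the filter on low counts. CDKN1C (ENSG00000129757, chromosome 11, 2883213 to 2885881) did not: it had 1 count in the second treated SU-DHL6 library and 0 in the other 11. A count of 0 allows up to 3 counts, which is 0.160 to 0.233 CPM in these libraries, so p57 mRNA was not detectable above that level in either line.

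Among the 6 genes with counts, the INK4 genes CDKN2A, CDKN2B and CDKN2C held the wide contrasts between the untreated lines, and the INK4 gene CDKN2D did not. CDKN2A (ENSG00000147889, chromosome 9, 21967753 to 21995301) and CDKN2B (ENSG00000147883, chromosome 9, 22002903 to 22009363), which encode p16 with ARF and p15, had 0 counts in all 6 OCI-LY3 libraries. CDKN2A was at 142.6, 96.3 and 186.2 CPM in the untreated SU-DHL6 libraries and at 78.5, 58.7 and 65.7 CPM in the treated ones. CDKN2B was far lower there, at 1.63, 0.808 and 0.795 CPM untreated and 1.83, 2.11 and 2.46 CPM treated. Set against a floor of 3 counts per library, untreated OCI-LY3 was at least 643-fold lower for CDKN2A and at least 4.89-fold lower for CDKN2B. Between treated cells the bounds were 290-fold and 9.15-fold.

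CDKN2C (ENSG00000123080, chromosome 1, 50960745 to 50974633), the p18 gene, was expressed in both lines. It was at 25.2, 21.8 and 21.5 CPM in untreated OCI-LY3 and at 140.1, 153.5 and 74.1 CPM in untreated SU-DHL6. Every untreated SU-DHL6 library lay above every OCI-LY3 library, and the third was well below its replicates. CDKN2A, CDKN2B and CDKN2C were uneven among untreated SU-DHL6 replicates, with the highest library at 1.93, 2.05 and 2.07 times the lowest. The third library was the highest for CDKN2A and the lowest for CDKN2B and CDKN2C. The log2 difference for CDKN2C, OCI-LY3 minus SU-DHL6, was -2.42 ± 0.23 (SE; edgeR quasi-likelihood test over 16474 genes, Benjamini-Hochberg adjusted p = 9.11e-07).

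CDKN1B (ENSG00000111276, chromosome 12, 12715058 to 12722371), the p27 gene, was ordered the other way, at 68.5, 59.0 and 63.1 CPM in untreated OCI-LY3 and 37.2, 37.6 and 37.5 CPM in untreated SU-DHL6, a log2 difference of 0.76 ± 0.09 (adjusted p = 4.16e-06). CDKN3 (ENSG00000100526, chromosome 14, 54396849 to 54420218) was at 18.9, 20.6 and 19.3 CPM against 28.2, 27.2 and 29.9 CPM, a difference of -0.54 ± 0.15 (adjusted p = 0.00486). CDKN2D (ENSG00000129355, chromosome 19, 10566462 to 10569059), the gene of the INK4 protein p19, was at 9.75, 7.51 and 9.55 CPM against 8.48, 11.1 and 10.0 CPM, and its groups overlapped (-0.15 ± 0.18, adjusted p = 0.491). In all, untreated OCI-LY3 was lower than untreated SU-DHL6 for 4 of the 6 genes, CDKN2A, CDKN2B, CDKN2C and CDKN3, and higher for CDKN1B. The calls of CDKN2A and CDKN2B lend this count no support, since without counts in OCI-LY3 both passed the filter through SU-DHL6 alone. The background is high, since 67.3% of all genes tested differed between the untreated lines (33.6% higher and 33.7% lower in OCI-LY3). Between the treated lines all 6 genes were called, CDKN1B and CDKN2D higher and the other 4 lower in OCI-LY3, beside 72% of all genes tested (36.2% higher and 35.8% lower). The same limit holds there for CDKN2A and CDKN2B.

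**Figure D1:**
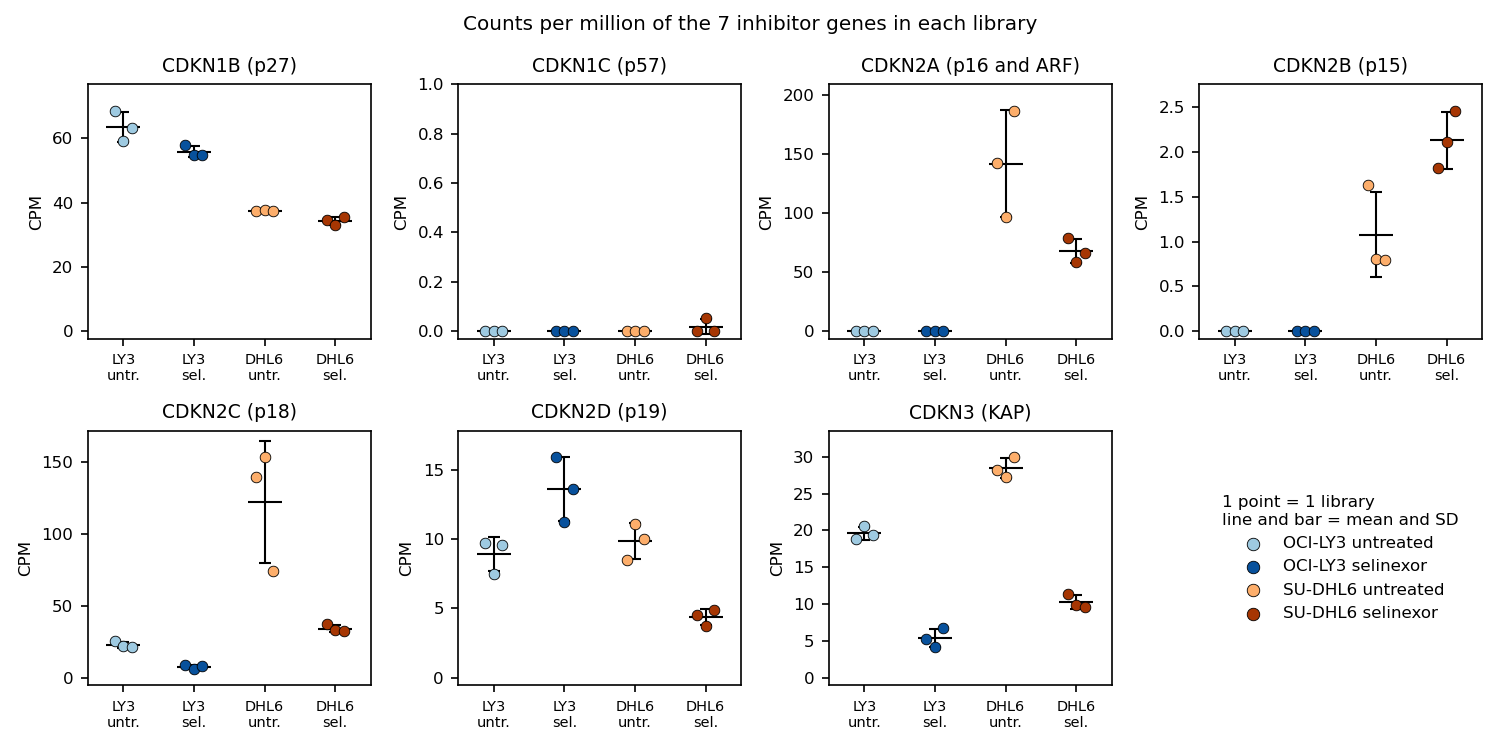
CPM of each of the 7 genes in each library, with a panel per gene and its own linear axis from 0. Each point is 1 library, and the line and bar give the mean and SD of 3 libraries. CDKN2A and CDKN2B are at 0 in OCI-LY3, CDKN2C and CDKN3 are lower in treated libraries of both lines, and CDKN2D is higher in treated OCI-LY3 and lower in treated SU-DHL6.

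The 0 counts of CDKN2A and CDKN2B in OCI-LY3 lay in a longer stretch of the table, which was looked up after those values had been seen. On chromosome 9, 15 consecutive rows from 21699314 to 22121097 had 0 counts in all 6 OCI-LY3 libraries, and 14 of them had counts in SU-DHL6, 13256 in sum over its 6 libraries. The stretch includes MTAP, the gene of a methionine salvage enzyme (2752 counts in SU-DHL6), CDKN2A (9961), CDKN2B (166) and the antisense transcript CDKN2B-AS1 (110). KHSRPP1, the row before it, had 5 counts in OCI-LY3 and 19 in SU-DHL6. AL157937.1, the row after it, had 1 and 2. KLHL9, a ubiquitin ligase adaptor gene on the same arm, had 3027 and 2482. A count of 0 in all OCI-LY3 libraries beside at least 100 in every SU-DHL6 library was found for 50 of 19817 protein-coding genes (0.252%). The reverse was found for 76 (0.384%). CDKN2A and MTAP are among the 50, and CDKN2B, with 11 to 46 counts in a SU-DHL6 library, is not. DNA copy number and methylation were not measured in these libraries. DMRTA1, the third of the neighbours listed for this locus, was at 0 in all 12.

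**Figure D2:**
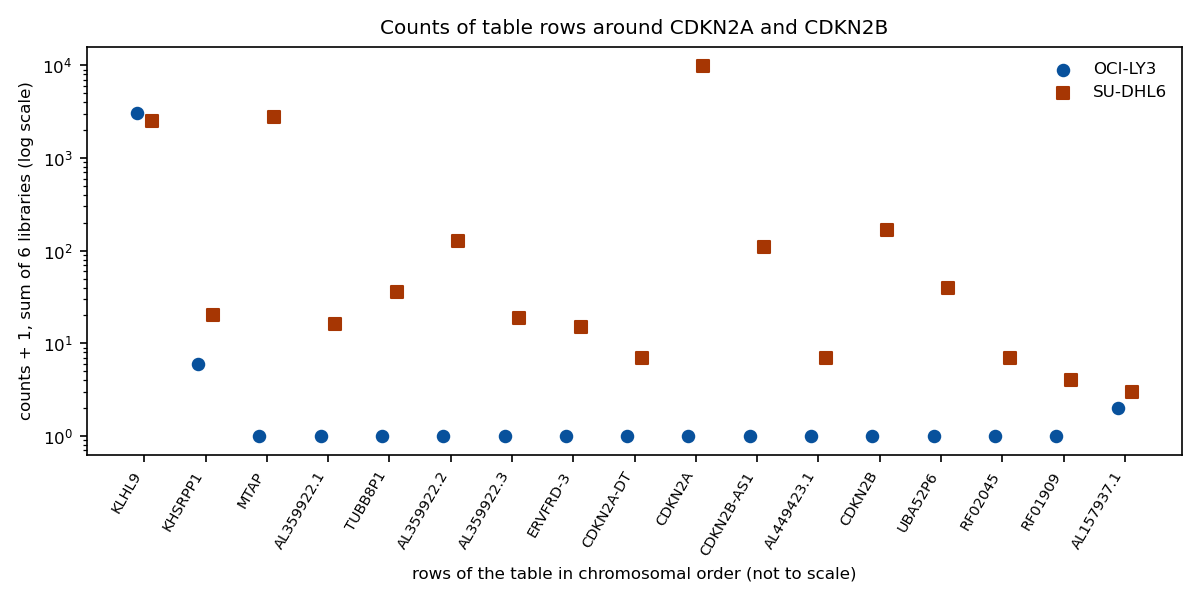
Counts of neighbouring rows of the table around CDKN2A and CDKN2B, in chromosomal order and not to scale, summed over the 6 libraries of each line, on a log axis of counts plus 1. From MTAP to RF01909 the OCI-LY3 points sit at 0 counts while SU-DHL6 has between 3 and 9961, and KLHL9 has counts in both lines.

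Among the called selinexor responses of the inhibitor genes, falls outnumbered rises in each line. In OCI-LY3, 2 of the 4 genes with counts fell (CDKN2C and CDKN3), CDKN2D rose and CDKN1B did not pass. In SU-DHL6, 4 of 6 fell (CDKN2A, CDKN2C, CDKN2D and CDKN3), none rose, and CDKN1B and CDKN2B did not pass. The background over all genes tested was 44.4% called for OCI-LY3 (22.2% rose and 22.2% fell) and 43.2% for SU-DHL6 (20.4% rose and 22.8% fell). It includes genes without counts in OCI-LY3. On that basis 1 of the 6 tested inhibitor genes rose in OCI-LY3, 2 fell and 3 were not called, a share near the background. The median log2 fold change of the 6 genes in SU-DHL6 was -1.12, beside 0.003 over all genes. In OCI-LY3 it was -0.09, beside 0 over all genes, with CDKN2A and CDKN2B entering at a fitted change of 0 because they had no counts there.

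CDKN2C fell in both lines. In OCI-LY3 it went from the 21.5 to 25.2 CPM given above to 8.77, 5.87 and 7.93 CPM with selinexor, a log2 fold change of -1.60 ± 0.24 or 3.04-fold lower (adjusted p = 0.000178). In SU-DHL6 it went to 37.1, 33.1 and 32.2 CPM, a log2 fold change of -1.84 ± 0.23 (adjusted p = 3.26e-05). No treated library reached the lowest untreated one in either line, and the treated SU-DHL6 libraries lay close together although the untreated ones did not. Treated SU-DHL6 libraries still lay above the untreated OCI-LY3 ones. The responses were not shown to differ, at -0.24 ± 0.33 for SU-DHL6 minus OCI-LY3 (adjusted p = 0.618; 0.13 with scaling by total counts).

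CDKN3 fell in both lines as well. It was at 5.20, 4.21 and 6.72 CPM in treated OCI-LY3, a log2 fold change of -1.86 ± 0.16 (adjusted p = 5.43e-07), and at 11.4, 9.84 and 9.63 CPM in treated SU-DHL6, a log2 fold change of -1.47 ± 0.15 (adjusted p = 3.49e-06). Treated and untreated libraries were far apart in each line. The difference of the responses was 0.39 ± 0.22 (adjusted p = 0.172), and it passed the threshold without the third treated OCI-LY3 library (0.59, adjusted p = 0.0364) or with scaling by total counts (0.77, adjusted p = 0.0116).

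CDKN2D moved in opposite directions in the lines. In OCI-LY3 it was at 15.9, 11.3 and 13.7 CPM with selinexor, all above the untreated libraries, and rose by 0.61 ± 0.18 on the log2 scale (adjusted p = 0.0135). In SU-DHL6 it was at 4.54, 3.73 and 4.87 CPM, all below the untreated libraries, with a log2 fold change of -1.17 ± 0.19 (adjusted p = 0.000167). The responses differed by -1.78 ± 0.26 (adjusted p = 0.000121), and CDKN2D was the only one of the 4 genes with counts in both lines whose responses were called different, beside 36.9% of all genes tested (17% with the higher and 19.9% with the lower response in SU-DHL6). The rise in OCI-LY3 missed the threshold without the second untreated library (0.50, adjusted p = 0.0678) or without the first treated library (0.49, adjusted p = 0.0676). CDKN2D did not differ past the threshold between the untreated lines, whereas treated OCI-LY3 was 1.63 ± 0.19 higher on the log2 scale than treated SU-DHL6 (adjusted p = 1.92e-06), in libraries whose dose and time may differ.

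CDKN2A fell in SU-DHL6 by a log2 fold change of -1.07 ± 0.24 (adjusted p = 0.00845), and the highest treated library, at 78.5 CPM, lay below the lowest untreated one, at 96.3 CPM. The fold change was -0.79 without the third untreated library and -1.29 without the second, and both stayed past the threshold. CDKN2B rested on few reads: its counts were 24, 13 and 11 in the untreated libraries and 33, 39 and 46 in the treated ones, which did not overlap. Its log2 fold change was 0.98 ± 0.37, with an adjusted p of 0.0545. Without the first untreated library, the highest of its group, it was 1.39 (adjusted p = 0.0166), and limma-voom gave 1.03 (adjusted p = 0.00845) where DESeq2 gave 0.99 (adjusted p = 0.111). Reads of CDKN2A and CDKN2B cannot be separated with certainty from those of CDKN2B-AS1 and AL359922.1, which overlap both genes and had at most 25 and 7 counts in a library, since the strand setting of the counting is not given in the sources used here. For CDKN2A these counts are small beside its own, and for CDKN2B they are not.

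CDKN1B changed little in mRNA. It was at 57.8, 54.9 and 54.7 CPM in treated OCI-LY3, just below the lowest untreated library at 59.0 CPM, with a log2 fold change of -0.19 ± 0.09 (adjusted p = 0.113). In SU-DHL6 it was at 34.4, 32.9 and 35.5 CPM, also below all untreated libraries, with -0.13 ± 0.09 (adjusted p = 0.288). Of all genes tested, 57.5% had groups that did not overlap in OCI-LY3 and 51.1% in SU-DHL6. Scaling by total counts, which put the median of all genes at -0.09 in OCI-LY3 and 0.27 in SU-DHL6, gave -0.30 (adjusted p = 0.0207) and 0.14 (adjusted p = 0.266). The sign of so small a change in SU-DHL6 thus follows the scaling.

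**Figure D3:**
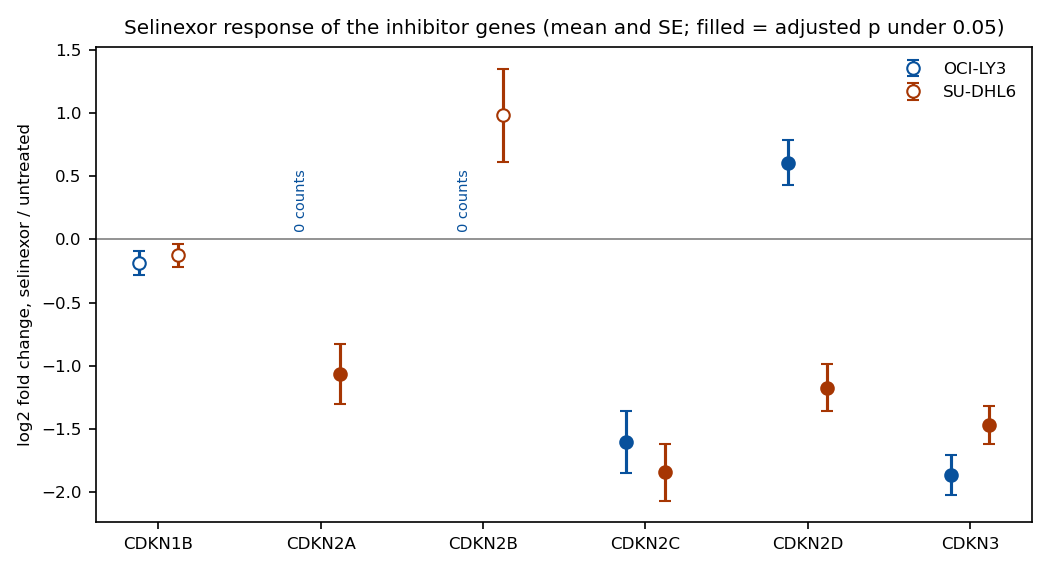
Log2 fold change of selinexor-treated over untreated libraries for the 6 genes that passed the filter, with SE bars, in OCI-LY3 (blue) and SU-DHL6 (brown). Filled points have an adjusted p under 0.05, and CDKN2A and CDKN2B have no value in OCI-LY3, where they had 0 counts. CDKN2D lies at 0.61 in OCI-LY3 and at -1.17 in SU-DHL6, while CDKN2C and CDKN3 lie between -1.47 and -1.86 in both.

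CDKN1A, which encodes p21, the remaining CIP/KIP protein, is given as background. It rose from between 217 and 221 to between 460 and 516 CPM in OCI-LY3 (1.18 ± 0.11 on the log2 scale, adjusted p = 8.26e-07) and fell from between 57.5 and 65.3 to between 7.49 and 10.0 CPM in SU-DHL6 (-2.77 ± 0.12, adjusted p = 6.18e-10). CDKN1A and CDKN2D thus had opposite called responses in the lines, each higher with selinexor in OCI-LY3 and lower in SU-DHL6. The ratio of CDKN1B to CDKN1A in FPKM (the deposited values per gene length and library total) was 0.390 to 0.456 in untreated and 0.155 to 0.172 in treated OCI-LY3. In SU-DHL6 the ratio was 0.832 to 0.935 untreated and 4.78 to 6.84 treated.

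Levels of different genes were compared per length, in FPKM, which are scaled by total counts. The lengths implied by the deposited values were 8086 bases for CDKN2A, 5839 for CDKN2B, 5329 for CDKN2C and 2508 for CDKN2D. They were 4324 bases for CDKN1B and 3656 for CDKN3. Orders, shares and ratios between genes rest on such lengths, and other lengths could change them. In untreated OCI-LY3 the order was CDKN1B (14.0 ± 1.18 FPKM, SD, n = 3), CDKN3 (5.09 ± 0.19), CDKN2C (4.08 ± 0.41) and CDKN2D (3.39 ± 0.49), in which CDKN3 lay above CDKN2C in every library and the CDKN2C and CDKN2D groups, at 3.82 to 4.55 and 2.83 to 3.74 FPKM, were close. With selinexor CDKN2D (4.76 ± 0.76) stood second to CDKN1B (11.3 ± 0.20), and CDKN3 (1.29 ± 0.31) and CDKN2C (1.24 ± 0.24) overlapped. In untreated SU-DHL6 CDKN2C (23.0 ± 8.23) and CDKN2A (17.5 ± 5.41) led with overlapping libraries, above CDKN1B (8.63 ± 0.27), CDKN3 (7.76 ± 0.39), CDKN2D (3.92 ± 0.42) and CDKN2B (0.186 ± 0.090). In treated SU-DHL6 CDKN2A (10.0 ± 1.31) and CDKN1B (9.49 ± 0.53) overlapped at the top, followed by CDKN2C (7.67 ± 0.39), CDKN3 (3.36 ± 0.22), CDKN2D (2.09 ± 0.30) and CDKN2B (0.438 ± 0.077). CDKN1B was the highest of the set in all 6 OCI-LY3 libraries, whereas in untreated SU-DHL6 CDKN2C and CDKN2A lay above it in every library.

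The INK4 mRNA of the lines differed in amount and in make-up. The 4 genes summed to 6.69 to 8.28 FPKM in untreated and 4.94 to 6.90 FPKM in treated OCI-LY3, ranges that overlap. In SU-DHL6 they summed to 40.0 to 49.4 FPKM untreated and 18.3 to 21.9 FPKM treated. The CDKN2A part of that sum holds ARF as well as p16 mRNA, in a split not known here. In OCI-LY3 the share of CDKN2C in the sum went from 51.5 to 57.8% untreated to 19.7 to 21.4% treated, and that of CDKN2D from 42.2 to 48.5% to 78.6 to 80.3%. In SU-DHL6 CDKN2A made up 26.3 to 56.1% of the sum untreated and 47.4 to 51.6% treated, and CDKN2C 33.9 to 63.6% and 36.6 to 40.6%, so that these shares overlapped.

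**Figure D4:**
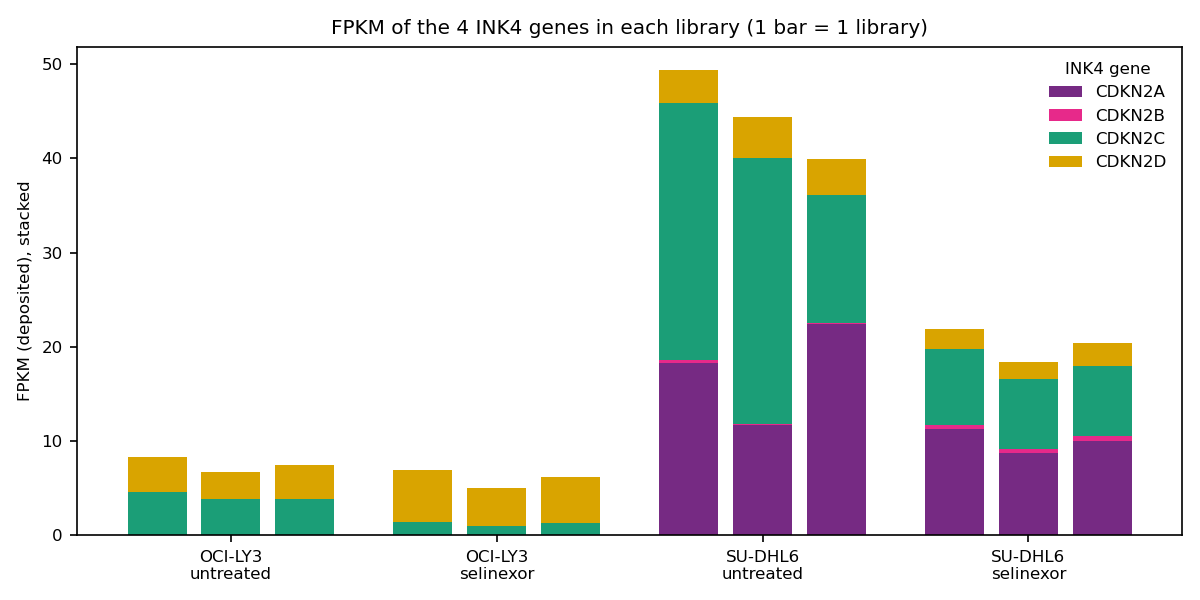
Deposited FPKM of the 4 INK4 genes, stacked, with 1 bar per library in each group. OCI-LY3 holds only CDKN2C and CDKN2D and sums to between 4.94 and 8.28 FPKM, and SU-DHL6 sums to between 40.0 and 49.4 FPKM untreated and between 18.3 and 21.9 FPKM treated.

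Promoter sequence from RefSeq (GRCh38.p14) was matched for 6 of the 7 genes, in 9 windows that run from 250 bases before to 50 bases after an annotated start. Only the 250 bases before the start were searched, on both strands, for the letters of known motifs, none of which contains another. The E2F motif was searched as TTCCCGC and in the variant forms TTGGCGC as well as TTCGCGC together with the form TTGCCGC. The cell cycle homology element, CHR, was searched as TTTGAA, the CCAAT box by its name, and the FOXO motif as TGTTTAC. Of 35114 such windows of all genes, 10.9% held an E2F motif, 13.3% a CHR, 32% a CCAAT box and 2.98% a FOXO motif. The stretches below are shown because CDKN2C and CDKN3 fell in both lines and CDKN2D did not; capitals mark the motifs. CDKN2C had E2F letters at 131 and 34 bases before 1 of its 3 starts, at chr1:50968565-50968591 and chr1:50968662-50968688 on the plus strand. CDKN3 had a CHR at 170 bases and CCAAT boxes at 208 and, on the other strand and outside the stretch shown, at 83 bases before its start (first 92 bases of the window, chr14:54396757-54396848, plus strand), and CDKN2D a CCAAT box at 234 bases (first 170 bases of the window, chr19:10569060-10569229, minus strand).
CDKN2C, site at 131 bases: agagcgggagGCGGGAAtgagggcgcg
CDKN2C, site at 34 bases: gcgcccggccTTCCCGCtcccgcggcg
CDKN3: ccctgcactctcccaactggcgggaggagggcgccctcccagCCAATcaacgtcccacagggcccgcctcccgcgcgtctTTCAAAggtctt
CDKN2D: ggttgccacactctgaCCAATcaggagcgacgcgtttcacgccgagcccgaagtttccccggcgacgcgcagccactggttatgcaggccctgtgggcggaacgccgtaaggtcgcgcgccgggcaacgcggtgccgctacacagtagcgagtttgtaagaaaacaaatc

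Across the 9 windows, E2F letters were found in 1 window of CDKN2C and CHR letters in the window of CDKN3. CCAAT letters were found for CDKN1B, CDKN2C, CDKN2D and CDKN3, and no window held the FOXO letters. A match describes the letters in the window and was not tested as a binding site.

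The kinases and cyclins that the inhibitors bind changed as well. CDK6, an INK4 target, fell in OCI-LY3 from between 116 and 123 to between 37.0 and 44.0 CPM (-1.60 ± 0.12 on the log2 scale, adjusted p = 1.3e-07) and rose in SU-DHL6 from between 40.5 and 51.1 to between 62.9 and 77.6 CPM (0.65 ± 0.11, adjusted p = 0.000399). The difference of the CDK6 responses was 2.25 ± 0.16 (adjusted p = 3.72e-07). CDK4, the other INK4 target, fell in both (-0.50 ± 0.15 and -0.84 ± 0.15). Of the D-type cyclins, CCND2 fell in OCI-LY3 (-0.52 ± 0.09) and was barely expressed in SU-DHL6, at 0.339 to 0.919 CPM. CCND3 fell in SU-DHL6 (-2.02 ± 0.30) and in OCI-LY3 (-0.87 ± 0.32, adjusted p = 0.0489), the latter call being lost with DESeq2's size factors. CCND1, named after its value was seen, was the 1 member of this list of 5 to rise in OCI-LY3 (0.89 ± 0.16). The INK4 sum over the sum of CDK4 and CDK6, both in FPKM, was 0.228 to 0.291 in untreated and 0.363 to 0.409 in treated OCI-LY3, and 1.80 to 2.48 and 1.03 to 1.14 in SU-DHL6. The ratio was thus higher with selinexor in OCI-LY3 and lower in SU-DHL6, with no overlap in either line. In SU-DHL6 it includes CDKN2A, whose row sums p16 and ARF.

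The KIP targets fell throughout. All 7 tested genes of the list of CDK1, CDK2 and cyclins E, A and B fell in each line, with medians of -1.36 in OCI-LY3 and -1.78 in SU-DHL6, beside 22.2% and 22.8% of all genes that fell. CCNA1, the 8th, was at 0 in all libraries. CCNA2 fell by 1.99 on the log2 scale in both lines and CDK2 by 0.98 and 1.30. The E-type cyclins, which form the complexes p27 is best known to restrain, fell further in SU-DHL6: CCNE1 had -1.36 ± 0.16 in OCI-LY3 and -3.26 ± 0.19 in SU-DHL6 (difference -1.90 ± 0.25, adjusted p = 5.74e-05), and CCNE2 had -0.63 ± 0.22 and -3.01 ± 0.18 (difference -2.38 ± 0.28, adjusted p = 2.15e-05). CCNE2 was low in untreated OCI-LY3, at 2.44 to 3.38 CPM against 27.3 to 38.0 CPM in untreated SU-DHL6. Treated SU-DHL6, at 3.77 to 4.12 CPM, still lay above untreated OCI-LY3. CCNB2 fell further in OCI-LY3 (-2.09 ± 0.11 against -1.14 ± 0.11, difference 0.95 ± 0.15, adjusted p = 0.000261).

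Of the genes that degrade p27, SKP2, the ubiquitin ligase subunit that recognises it, fell in both lines (-1.30 ± 0.21 and -1.02 ± 0.21), and so did its cofactor CKS1B (-1.29 ± 0.15 and -1.55 ± 0.15). In this list of 8, 2 rose and 3 fell in OCI-LY3, and 1 rose and 3 fell in SU-DHL6 (2 and 4, and 2 and 2, with scaling by total counts), beside 44.4% and 43.2% of all genes called. CUL1, the scaffold of the same ligase, fell in OCI-LY3 (-0.61 ± 0.10) and was at -0.16 ± 0.10 in SU-DHL6, where scaling by total counts gave 0.11. RNF123, a subunit of a cytoplasmic p27 ligase, rose in OCI-LY3 (0.69 ± 0.11) and was at -0.14 ± 0.11 in SU-DHL6, or 0.13 with scaling by total counts. Among 5 genes known to drive transcription of KIP genes and CDKN2C, 3 rose and 0 fell in each line (2 rose and 1 fell in OCI-LY3, and 5 rose in SU-DHL6, with scaling by total counts), beside 22.2% and 20.4% of all genes that rose. FOXO1 rose in both (0.32 ± 0.10 and 0.54 ± 0.10), a call lost in OCI-LY3 with scaling by total counts. FOXO4 rose in OCI-LY3 (1.05 ± 0.20) and had 0.34 ± 0.19 in SU-DHL6 (called with total counts at 0.60). FOXO3 rose in SU-DHL6 (0.67 ± 0.16) and was at 0.04 ± 0.18 in OCI-LY3, or -0.08 with total counts. KMT2A, a histone methyltransferase, rose in SU-DHL6 (0.75 ± 0.11) and was at -0.28 ± 0.11 in OCI-LY3 (difference 1.03 ± 0.16, adjusted p = 0.000242). With total counts KMT2A was called lower in OCI-LY3, at -0.39. Of the genes they act on, CDKN2C fell in both lines (-1.60 and -1.84). CDKN1B mRNA did not pass the threshold in either line, but was called lower in OCI-LY3 with total counts (-0.30). A link between these changes was not tested.

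The regulators of the CDKN2A and CDKN2B locus were mixed. Of 9 Polycomb genes, which silence it, 3 rose and 3 fell in OCI-LY3, and 1 rose and 3 fell in SU-DHL6. With scaling by total counts, 3 rose and 3 fell, and 2 rose and 1 fell. These counts stand beside 44.4% and 43.2% of all genes called, and the share in SU-DHL6 is near that background. EZH2, the Polycomb methyltransferase, fell in both lines (-1.12 ± 0.11 and -1.19 ± 0.11), SUZ12 (-0.70 ± 0.12) and EED (-0.56 ± 0.11), its complex partners, fell in OCI-LY3, and RING1 rose there (0.62 ± 0.13) and fell in SU-DHL6 (-0.36 ± 0.13, a call lost with total counts, at -0.09). In SU-DHL6 SUZ12 was at -0.22 ± 0.12 (0.04 with total counts) and EED at -0.29 ± 0.11. Of 4 activators, ETS1 rose in OCI-LY3 (1.19 ± 0.11) and KDM6B, a demethylase that opposes EZH2, rose in SU-DHL6 (0.57 ± 0.17). ETS2 (-0.58 ± 0.10) and ZBTB17 (-0.74 ± 0.13), which encodes the CDKN2B activator MIZ1, fell in SU-DHL6. MTAP, the neighbour of CDKN2A, rose in SU-DHL6 (0.55 ± 0.16, adjusted p = 0.0184) where CDKN2A fell, and CDKN2B-AS1 had -0.51 ± 0.36 (adjusted p = 0.282).

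Downstream of the INK4 proteins, RB1 did not pass in either line (0.00 ± 0.11 in OCI-LY3 and 0.22 ± 0.11 in SU-DHL6, the latter called with scaling by total counts at 0.48). RBL1, the p107 gene, fell in both (-0.40 ± 0.14 and -0.59 ± 0.14, the latter call lost with total counts), and RBL2, the p130 gene, rose in OCI-LY3 (0.51 ± 0.13) and had 0.28 ± 0.13 in SU-DHL6 (called with total counts at 0.54). Downstream of ARF, MDM2 rose in OCI-LY3 (0.93 ± 0.13), the line with 0 CDKN2A counts, and was at -0.24 ± 0.13 in SU-DHL6 (0.02 with total counts). NPM1, which holds ARF in the nucleolus, fell in OCI-LY3 (-0.40 ± 0.10) and was at 0.16 ± 0.10 in SU-DHL6 (called with total counts at 0.42).

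**Figure D5:**
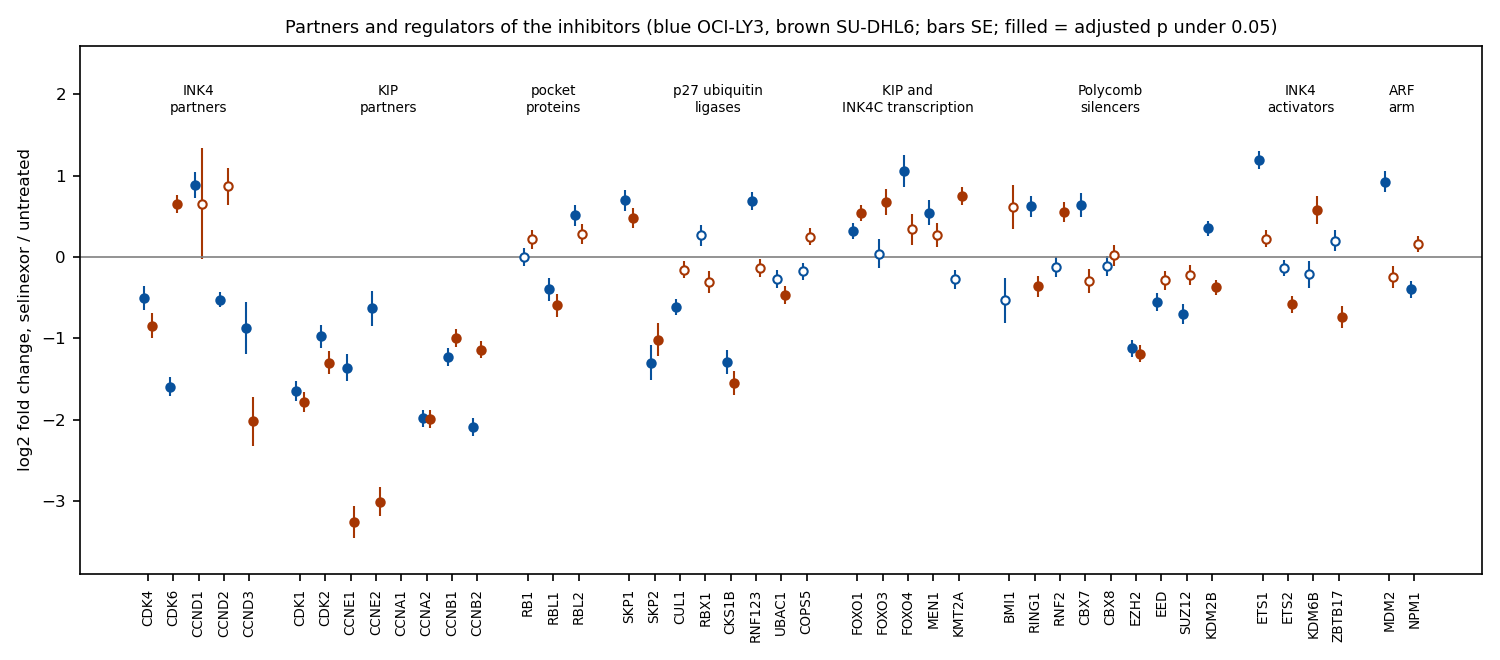
Log2 fold change of selinexor-treated over untreated libraries for partners and regulators of the inhibitors, by list, in OCI-LY3 (blue) and SU-DHL6 (brown), with SE bars and filled points for an adjusted p under 0.05. The KIP partners lie below 0 in both lines, from -3.26 for CCNE1 in SU-DHL6 to -0.63 for CCNE2 in OCI-LY3, and CDK6 lies at -1.60 in OCI-LY3 and 0.65 in SU-DHL6.

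The genes most like each inhibitor were taken over log2 CPM of the 12 libraries, after subtracting each line's mean, among 12705 protein-coding genes tested. Pearson's r is a description here, since all 12 libraries share the same treatment split, and it carries no test. CDKN3 was nearest to CCNB1 (r = 0.993), the mitotic cyclin B1 gene, then POLR1E (0.991) and P3H1 (0.989). CDKN2C was nearest to SPRY4 (0.979), NTNG1 (0.976) and NUP37 (0.972), and CDKN2D to SETDB1 (0.980), STX5 (0.980) and ZC4H2 (0.973). CDKN1B was nearest to FAM72B (0.950), MKI67 (0.930), the gene of the proliferation antigen Ki-67, and ARNTL2 (0.924). CDKN2A and CDKN2B, whose pattern then comes from the 6 SU-DHL6 libraries alone, were nearest to LETMD1 (0.964) and GPR15 (0.991). Without that subtraction the line difference dominates, and CDKN2A was nearest to UGT2B17 (0.9995) and CDKN2C to HACE1 (0.985), GGCT (0.981) and the replication helicase gene MCM6 (0.980).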

How the data were processed

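The 12 samples are RNA sequencing libraries. The authors deposited raw read counts and FPKM values per gene and library, per the file headers. Neither aligner nor counter is named, and the counting's strandedness is not stated. Mouse builds (GRCm38, mm10) appear in the submitters' processing notes, but the identifiers are human: GENCODE release 29 (GRCh38) held 58039 of 58302, with the same coordinates for 97.5%, so coordinates are given as in the table, on GRCh38. Titles gave each sample its group.

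The counts entered edgeR 4.0.16 (R 4.3.3): filterByExpr by group (16474 genes kept), TMM scaling, a coefficient per group over all 12 libraries, and the robust quasi-likelihood F test with Benjamini-Hochberg adjustment over all genes tested, called at an adjusted p under 0.05. The SE is the log2 fold change over the square root of F. "Rose" and "fell" are used of called genes only. The deposited FPKM values served to compare levels between genes and were not tested. All 7 inhibitor genes were named, with up to 4 genes of each pathway list (those with the smallest adjusted p in either line), plus CDK4, CDK6, CDK2, SKP2, EZH2 and CDKN1A. Some listed genes are not reported here. The genes and lists were chosen with earlier results of these data known. Replicates may share a culture, in which case p-values measure technical spread; no 2 libraries agreed within sampling noise (chi-square per degree of freedom 10.5 to 26.5). Alternatives were other scalings and filters, DESeq2 1.42.0, limma-voom 3.58.1, a threshold of 0.01, the lines alone, a replicate block, and leaving out each library.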

Additional observations from a re-analysis of the deposited data

Results flagged for a closer look

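The selinexor responses of CDKN2D differed between the lines by -1.78 on the log2 scale (SU-DHL6 minus OCI-LY3; SE 0.26, edgeR quasi-likelihood test, adjusted p = 0.000121). The gene was higher in 3 of 3 treated OCI-LY3 libraries and lower in 3 of 3 treated SU-DHL6 libraries than in any untreated library of the same line. Such groups did not overlap for 57.5% of all genes tested in OCI-LY3 and 51.1% in SU-DHL6, and 36.9% had called differences of response. The rise in OCI-LY3 kept its call in 18 of 21 alternatives. Over 20 alternatives the difference ranged from -1.90 to -1.39, with adjusted p from 9.85e-09 to 0.00105. Dose and time are not tied to the libraries, so line and treatment conditions cannot be told apart.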

How the results depend on the processing

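Under the alternatives run, 514 values of single genes kept their direction and their side of the threshold, 9 passed it only in the alternative, 3 lost it and 4 changed sign. With scaling by total counts, 3 genes had called differences of response (CDKN1B at 0.44, adjusted p = 0.02, CDKN3 at 0.77 and CDKN2D) in place of 1, CDKN1B was at 0.14 in SU-DHL6, and the CDKN2C difference was 0.13. The median of all genes for the difference of responses was 0.35 with this scaling and -0.02 with TMM scaling. Scaling by total counts also changed the split of all called genes, to 2939 higher and 4388 lower in OCI-LY3 (from 3664 and 3657), to 5451 and 2367 in SU-DHL6 (from 3365 and 3758), to 4891 and 1817 for the difference of responses (from 2798 and 3274) and to 4317 and 8165 between the treated lines (from 5956 and 5899). Without single libraries, 1 to 2 genes had called differences of response; 2 to 3 genes were called in OCI-LY3, 4 to 5 in SU-DHL6, 5 between the untreated and 6 between the treated lines. Without single libraries the CDKN1B difference was -0.0034 (the first untreated OCI-LY3 library left out) to 0.10. The cause was not tested.

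CDKN2B in SU-DHL6 was also called with scaling by total counts (1.24, adjusted p = 0.0221), a filter of 1 CPM in 3 libraries (adjusted p = 0.0477) and its line alone (adjusted p = 0.0345). At the threshold of 0.01 the rise of CDKN2D in OCI-LY3 was not called. That threshold leaves 3941 of 6072 genes called for the difference of responses.

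With the replicate number as a replicate block, 3, 4, 1, 5 and 6 genes were called in OCI-LY3, SU-DHL6, the difference, the untreated and the treated lines, as without it, and CDKN2D between the untreated lines was 0.12 (adjusted p = 0.714) in place of -0.15. Same-numbered libraries deviated together at r = 0.005 to 0.013 in OCI-LY3 and -0.12 to 0.05 in SU-DHL6. These values show little shared deviation but cannot tell whether same-numbered libraries were set up together. Depth limits CDKN2B, with 11 to 46 counts in a SU-DHL6 library, and CDKN1C, CDKN2A and CDKN2B in OCI-LY3, where their 0 counts allow up to 3 counts. Such floors cover counting error only.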
